A study of Homo sapiens with 6 samples.

Results

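The guanylate-binding protein family was followed through 6 RNA-seq libraries as the 5 genes GBP1, GBP2, GBP3, GBP4 and GBP5, chosen by symbol. All 5 were among the 17356 lines of the deposited files and all 5 passed the filter that left 16548 genes for testing. The libraries came from C4-2B-ENZR, a human prostate cancer cell line resistant to the prostate cancer drug enzalutamide. In 3 libraries the cells had received a negative control siRNA (NC) and in the other 3 an siRNA against KIF15, a spindle kinesin (siKIF15). All cells were of this 1 line and grew in serum-supplemented culture medium. The labels do not say whether replicate libraries were grown as separate cultures. The p-values therefore reflect library-to-library spread alone, and this may be technical.

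Guanylate-binding proteins are large interferon-inducible GTPases of the dynamin superfamily. They assemble on cytosolic bacteria and on the vacuoles of pathogens, where they help to expose lipopolysaccharide to caspase-4. GBP1, GBP2 and GBP5 carry a C-terminal CaaX box and are prenylated, which anchors them to membranes, whereas GBP3 and GBP4 lack this box. Interferon gamma, acting in part through IRF1, is their best known inducer, and type I interferon also raises several of them.

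The genes of the family lie next to each other on chromosome 1 in RefSeq, in the order GBP3, GBP1, GBP2, GBP7, GBP4, GBP5 and GBP6. The RefSeq promoter table (GRCh38.p14) holds GBP1, GBP3 and GBP4 of the 5. Their promoters are shown because they are the members among the 5 for which the table has a sequence. Each stretch is the 250 bases before the annotated start, written 5′ to 3′ on the strand of the gene. Capitals mark matches to 1 of 3 motifs searched on both strands, with N for any base: the interferon-stimulated response element (GAAA and GAAA with 2 bases between), bound by the IRF9-containing complex and by IRFs, the gamma-activated sequence TTCNNNGAA, an element of interferon gamma responses, and the NF-kappa B motif (GGGA and TTTCC with 1 base between).
GBP4 (chr1:89198943-89199192, minus strand): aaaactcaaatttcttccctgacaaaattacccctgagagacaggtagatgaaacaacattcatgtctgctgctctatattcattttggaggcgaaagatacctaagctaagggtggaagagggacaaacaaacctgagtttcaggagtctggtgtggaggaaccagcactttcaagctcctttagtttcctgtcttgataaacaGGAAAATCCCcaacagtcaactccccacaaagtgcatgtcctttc
GBP1 (chr1:89065209-89065458, minus strand): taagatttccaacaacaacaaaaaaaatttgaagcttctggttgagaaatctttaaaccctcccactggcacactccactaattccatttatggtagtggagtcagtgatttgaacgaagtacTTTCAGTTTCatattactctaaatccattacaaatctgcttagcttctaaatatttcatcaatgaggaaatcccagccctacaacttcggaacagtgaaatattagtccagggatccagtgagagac
GBP3 (chr1:89022867-89023116, minus strand): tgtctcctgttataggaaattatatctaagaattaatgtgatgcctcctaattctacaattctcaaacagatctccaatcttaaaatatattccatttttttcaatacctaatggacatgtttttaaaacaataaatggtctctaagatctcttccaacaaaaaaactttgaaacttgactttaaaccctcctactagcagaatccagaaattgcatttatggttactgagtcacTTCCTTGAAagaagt
Each of these 3 promoters held a match to a different motif. The promoters of GBP6 and GBP7, family genes outside the 5, were searched in the same way and held no match. The GBP1 promoter matched the interferon-stimulated response element, read on the opposite strand as TTTCAGTTTC, 127 to 118 bases before the start. The match in the GBP3 promoter was TTCCTTGAA, a gamma-activated sequence 15 to 7 bases before the start. The GBP4 promoter matched the NF-kappa B motif as GGAAAATCCC, 45 to 36 bases before the start, and neither of the interferon motifs. Over 35116 promoters of the same length, 3.02% held the response element, 6.57% the gamma-activated sequence and 0.527% the NF-kappa B motif. These matches describe letters in a window, and binding was not measured.

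The targeted transcript did not bear out the label. KIF15 was at 366.4, 403.6 and 319 in the control libraries and 294.8, 333.1 and 363 in the siKIF15 ones, with a log2 change of -0.13 that did not pass the test (limma adjusted p = 0.57). NC and siKIF15 therefore name the libraries by their labels throughout.

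Of the 5 genes, 4 were higher in the libraries labelled siKIF15 and none was lower. GBP4 gave the largest rise of the 5, 21.0-fold, followed by GBP1 (3.99-fold), GBP5 (3.13-fold) and GBP3 (2.58-fold), while GBP2 did not pass the test at 1.12-fold. Values are signals as deposited, 1 for each gene, in a unit that the files do not give. A positive log2 change means a higher siKIF15 mean of log2(value + 1), a scale that understates changes of low genes, and adjusted p-values are from limma over all tested genes with a threshold of 0.05. Across all genes 18.0% passed that threshold, 9.66% upward and 8.33% downward, against 4 of 5 upward and 0 downward here. An upward call with a log2 change of at least 1 was made for 2.81% of genes and for the same 4 members. The median log2 change of the 5 was 1.65, beside -0.0035 over all tested genes. In bulk libraries a change in the number of cells that express a gene cannot be told apart from a change of RNA per cell.

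**Figure D1:**
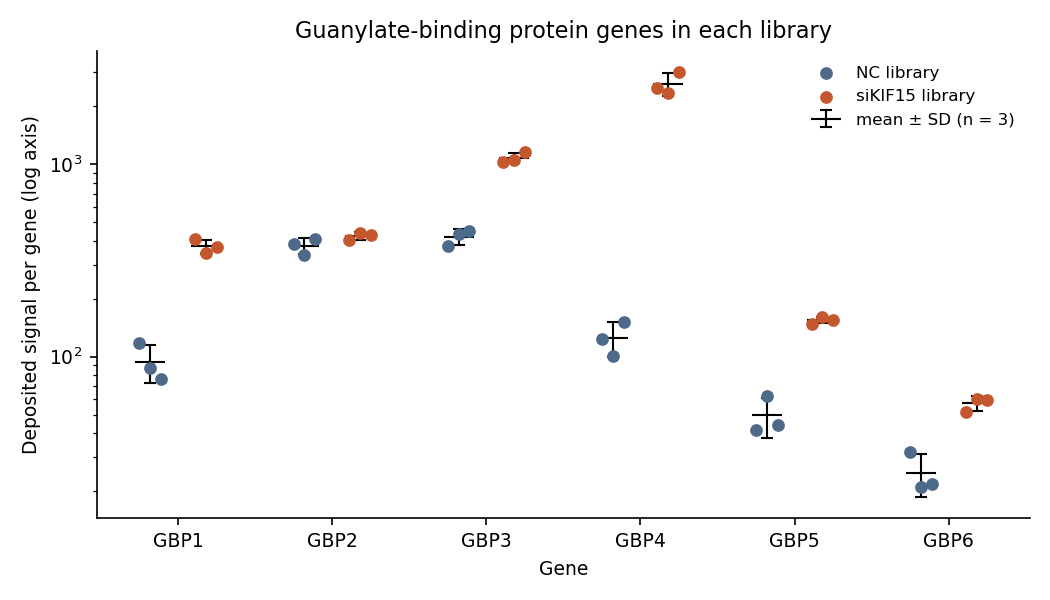
Deposited signal (log axis) of GBP1 to GBP6 in each of the 3 NC and 3 siKIF15 libraries. Points are libraries, and bars are the mean ± SD of 3. The siKIF15 points of GBP4 lie between 2348.8 and 3013.2, against 100.3 to 151.9 in NC, whereas the points of GBP2 overlap between the groups.

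GBP4 is a member without a CaaX box that joins GBP coats on bacteria. Its signal was 122.9, 100.3 and 151.9 in NC 1, 2 and 3 and 2500, 2348.8 and 3013.2 in siKIF15 1, 2 and 3. All siKIF15 libraries stood far above all NC libraries, and the lowest of them was 15.5 times the highest NC library. The means were 125 ± 25.9 and 2621 ± 348 (SD, n = 3), a log2 change of 4.39 ± 0.15 (SE; 95% interval 4.08 to 4.70; limma adjusted p = 3.9e-12). This change ranked 69 from the top among 16548 genes.

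GBP1 initiates the assembly of GBP coats by binding lipopolysaccharide. Its signal was 117.1, 87.7 and 76.5 in the control libraries and 407.6, 343.7 and 370.4 in the siKIF15 ones. The groups did not overlap, and the lowest siKIF15 library was 2.93 times the highest NC library. The mean went from 93.8 ± 21.0 to 374 ± 32.1 (SD, n = 3). On the log2 scale this was a rise of 2.00 (95% interval 1.61 to 2.39, SE 0.18), with a limma adjusted p of 1.4e-06.

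GBP5 is known as a promoter of NLRP3 inflammasome assembly and as an inhibitor of the protease furin. It was the lowest of the 5 genes in signal, at 41.4, 62.7 and 44.4 in the control libraries and 148.4, 160.8 and 155.8 in the siKIF15 ones. Its groups did not overlap either, with NC 2 the highest NC library. The mean went from 49.5 ± 11.5 to 155 ± 6.23 (SD, n = 3). On the log2 scale this was a rise of 1.65 (95% interval 1.17 to 2.13, SE 0.22), with a limma adjusted p of 0.0001.

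GBP3 is the closest relative of GBP1, with 91.6% identical coding bases over 1770 aligned, and also joins GBP coats. Its signal was 374.2, 431.6 and 452.2 in the control libraries and 1032.4, 1056.9 and 1153.3 in the siKIF15 ones. The lowest siKIF15 library was 2.28 times the highest NC library. The mean went from 419 ± 40.4 to 1081 ± 63.9 (SD, n = 3). On the log2 scale this was a rise of 1.37 (95% interval 1.13 to 1.60, SE 0.11), with a limma adjusted p of 2.9e-07.

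GBP2, a prenylated member that inhibits furin as GBP5 does, was the exception. Its signal was 386.1, 336 and 410.5 in the control libraries and 404.2, 440.6 and 428.1 in the siKIF15 ones. The groups overlapped, since siKIF15 1 lay below NC 3. The log2 change of 0.17 ± 0.13 (SE) did not pass (limma adjusted p = 0.39), and its 95% interval of -0.10 to 0.44 corresponds to 0.936-fold to 1.36-fold. The interval therefore lies below those of the other 4 genes, without showing that GBP2 stayed at the same level. All siKIF15 libraries lay above all NC libraries for 18.3% of tested genes, and for 4 of these 5.

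**Figure D2:**
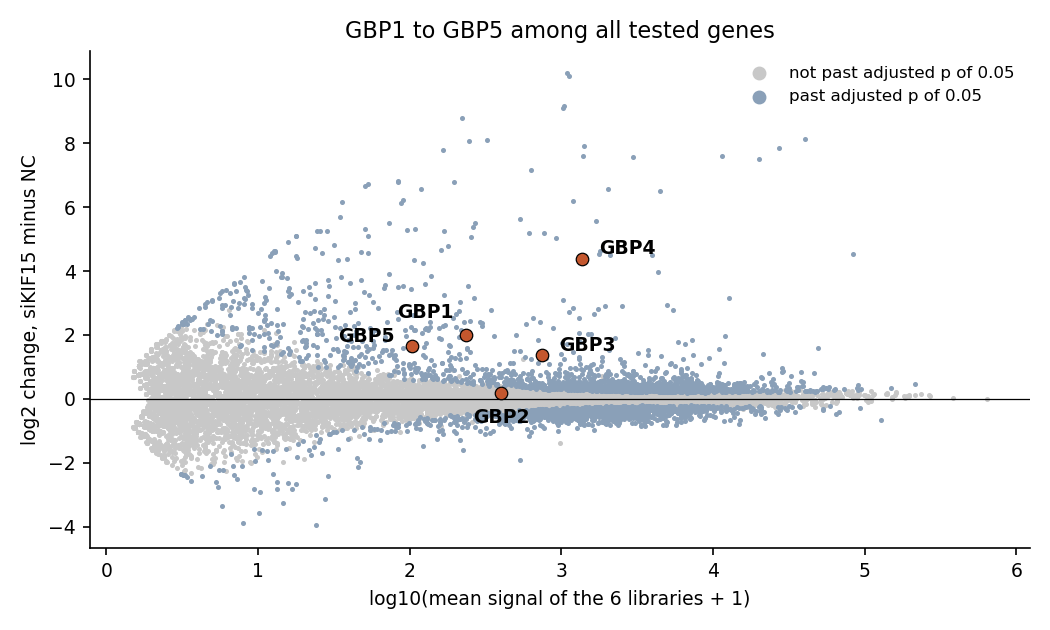
Log2 change (siKIF15 minus NC) against log10 of the mean signal + 1 for the 16548 tested genes, with GBP1 to GBP5 as large labelled points. GBP4 stands at 4.39 and GBP2 at 0.17, inside the band of genes that did not pass the threshold.

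The sizes of the rises were compared with GBP1 within each library, as the log2 signal of a gene minus that of GBP1. The exact permutation test of 3 against 3 libraries cannot go below p = 0.1, so none of the 4 comparisons could pass. GBP4 was above GBP1 by 0.07, 0.19 and 0.98 in the control libraries and by 2.61, 2.77 and 3.02 in the siKIF15 ones, so the gap widened by 2.39 with no overlap (exact two-sided permutation p = 0.1, 0.13 adjusted over the 4 comparisons). GBP2 was above GBP1 by 1.71, 1.93 and 2.41 in the control libraries and by -0.01, 0.36 and 0.21 in the siKIF15 ones, a narrowing by 1.83 with no overlap (exact p = 0.1, adjusted 0.13). GBP3 was above GBP1 by 1.67, 2.29 and 2.55 in the control libraries and by 1.34, 1.62 and 1.64 in the siKIF15 ones, again with no overlap (exact p = 0.1, adjusted 0.13). For GBP5 the differences from GBP1 overlapped, with -1.48, -0.48 and -0.77 in the control libraries and -1.45, -1.09 and -1.24 in the siKIF15 ones (exact p = 0.4, adjusted 0.4).

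Levels were compared between genes per kilobase of the GENCODE 29 principal transcript. Its length was 3035, 2220, 3067, 6127 and 2011 bases for GBP1 to GBP5. Dividing by length assumes that the deposited signals had not already been scaled to it, and this was not tested. The lengths the authors counted over are not given in the sources used here. On this scale GBP2 was the highest of the 5 in NC, at a mean of 170.1 ± 17.1 (SD, n = 3), followed by GBP3 at 137 ± 13.2, and the library ranges of the 2 did not overlap. GBP1 (30.9 ± 6.92), GBP5 (24.6 ± 5.73) and GBP4 (20.4 ± 4.22) followed, and the ranges of GBP1 and GBP5, and of GBP5 and GBP4, overlapped. In siKIF15 the order was GBP4 (428 ± 56.8), GBP3 (352 ± 20.8), GBP2 (191 ± 8.32), GBP1 (123 ± 10.6) and GBP5 (77.1 ± 3.10), with no overlap between neighbours. Without division by length, the NC mean of GBP3 (419) was above that of GBP2 (378), with overlapping ranges. That of GBP4 (125) was then above those of GBP1 (93.8) and GBP5 (49.5), and its range overlapped that of GBP1. The order of the siKIF15 means was the same with and without the division. The summed signal per kilobase of the 5 genes was 383 ± 19.1 in NC and 1172 ± 77.1 in siKIF15, 3.06 times as high.

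The make-up of this sum shifted from GBP2 to GBP4 as the sum grew. Shares carry the same assumption that signals had not already been scaled to length. The share of GBP2 fell although its own mean level was not lower (170.1 per kilobase in NC and 191 in siKIF15). GBP4 held 5.34%, 4.44% and 6.13% of it in NC 1, 2 and 3 and 34.2% to 39.0% in siKIF15 (mean 36.4% ± 2.42, SD, n = 3), highest in siKIF15 3. GBP2 held 46.4%, 41.1% and 45.7% in the control libraries and 16.0%, 17.7% and 15.3% in the siKIF15 ones. GBP3 went from a mean of 35.7% to 30.1%, while GBP1 (8.12% and 10.5%) and GBP5 (6.47% and 6.60%) had mean shares that differed by less between the groups. Per kilobase of coding sequence, which is alike in length among the 5 (1758 to 1920 bases), GBP3 stood above GBP2 in NC with overlapping ranges, and GBP4 followed them. The mean share of GBP4 then went from 10.9% to 54.3%, and that of GBP2 from 35.8% to 9.59%. For these 2 genes the direction held while the size depended on the length used. GBP3 then had the largest mean share in NC, and went from 39.6% to 24.2%. The mean shares of GBP1 (8.95% and 8.43%) and GBP5 (4.78% and 3.53%) were lower in siKIF15 on this scale, against higher per kilobase of transcript.

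**Figure D3:**
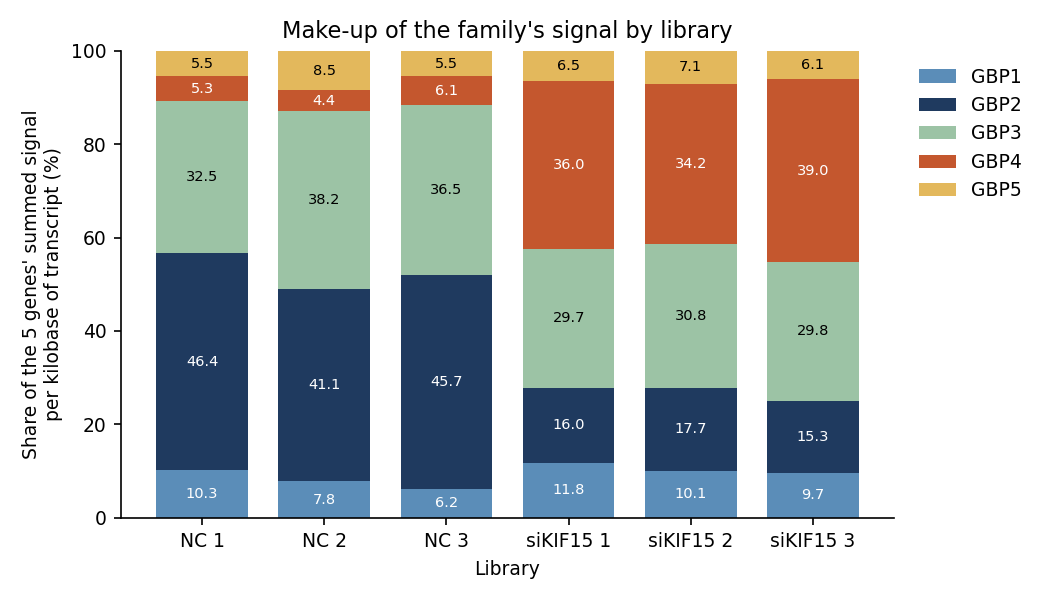
Share (%) of GBP1 to GBP5 in their summed signal per kilobase of transcript, 1 stacked bar for each library. GBP2 is the largest share in the 3 NC libraries (41.1% to 46.4%) and GBP4 in the 3 siKIF15 libraries (34.2% to 39.0%). Shares assume that the deposited signals had not already been scaled to length.

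The highest library within a group differed between the genes. In NC, GBP1 was highest in NC 1 (0.34 above its group mean on the log2 scale), GBP5 in NC 2 (0.36 above) and GBP4 in NC 3 (0.30 above). In siKIF15 the largest deviation was 0.21, for GBP4 in siKIF15 3. The coefficients of variation in NC were 22.4%, 20.7% and 23.3% for GBP1, GBP4 and GBP5 and 10.1% and 9.64% for GBP2 and GBP3, beside a median of 11.8% over 2675 genes with NC means of 40 to 450. In siKIF15 they ran from 4.02% (GBP5) to 13.3% (GBP4), beside a median of 9.34% over 6730 genes with means of 150 to 2700.

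Reads shared between family members could be split in ways the sources do not state. Of the windows of 50 bases in each principal transcript, 13.3% in GBP1 were identical to a stretch of another GBP transcript, most often of the pseudogene GBP1P1. The share was 4.14% in GBP3, 3.09% in GBP2 and 0.313% in GBP4, and no such window was found in GBP5. With windows of 36 bases the shares were 21.2% in GBP1, 8.54% in GBP3, 6.13% in GBP2, 1.41% in GBP4 and 0.506% in GBP5. The sources used here do not give the read length. At both window lengths GBP1 shared the most sequence and GBP5 the least. How shared reads were counted, and how far they enter the signals, was not tested.

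Outside the 5 genes, the files list 2 more members of the family. GBP6, which is 80.0% identical to GBP4 over the aligned coding bases, stood at 32, 21 and 21.7 in the control libraries and at 51.7, 60.5 and 59.8 in the siKIF15 ones. It rose 2.30-fold (log2 change 1.19 ± 0.29 SE, limma adjusted p = 0.010), and this call ended without NC 2 (adjusted p = 0.054) or siKIF15 1 (adjusted p = 0.051). GBP7, which lies between GBP2 and GBP4 on the chromosome, was at 0 in every library but NC 3 (1.9), to 1 decimal, and was too low to test.

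Of 10 measured genes flanking the cluster none rose and 3 fell by small amounts, namely PKN2 (log2 change -0.46), LRRC8B (-0.49), the nearest protein-coding neighbour of GBP6 apart from the GBP genes, and ZNF644 (-0.40), with a list median of -0.22. RBMXL1 and KYAT3, the neighbours beyond GBP3, had log2 changes of -0.16 and 0.07 and did not pass (limma adjusted p = 0.24 and 0.72). No flanking gene passed without NC 2 or siKIF15 1, and 2 fell without NC 1, NC 3 or siKIF15 2 and 5 without siKIF15 3. None fell without the variance trend, and 5 fell after GC and length correction. Over all tested genes 9.66% were called upward and 8.33% downward.

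Of the signalling that induces GBP genes, 13 measured genes are reported, of which 6 rose and 1 fell (list median 0.23). Calls over all tested genes were 9.66% upward and 8.33% downward. IRF9, the DNA-binding partner of STAT2 in the type I interferon complex, rose from 336.1, 256 and 347 in NC to 1411.1, 1493.2 and 1437.1 in siKIF15 (log2 change 2.22 ± 0.12 SE, 4.62-fold). IRF1, a transcription factor of GBP induction, rose from 1154.8, 1078.7 and 1138 to 2517.2, 2632.6 and 2531.7 (1.19 ± 0.08 SE, 2.28-fold). Neither gene's groups overlapped, and both calls held in all 16 alternative settings.

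The feedback inhibitor SOCS1 rose 1.67-fold. The kinases JAK2 and TYK2 (1.34-fold and 1.17-fold) and IRF2 (1.25-fold) also rose, and the type I receptor chain IFNAR1 fell by 0.26 on the log2 scale. With single libraries left out, the IFNAR1 call held without siKIF15 3 and ended without any other library. The receptor chains for interferon gamma, IFNGR1 and IFNGR2, had log2 changes of 0.04 and 0.07 (limma adjusted p = 0.79 and 0.63). STAT2 (0.26, adjusted p = 0.051), JAK1 (-0.39) and IFNAR2 (-0.15) did not pass either. IRF8, a factor of myeloid cells, was at 0, 4.6 and 0 in NC and at 0 in siKIF15. The number of rises was 2, 3, 3, 2, 6 and 6 without NC 1, 2, 3 and siKIF15 1, 2, 3, was 3 with libraries scaled to equal totals, and was 2 (IRF9 and IRF1) without the variance trend.

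**Figure D4:**
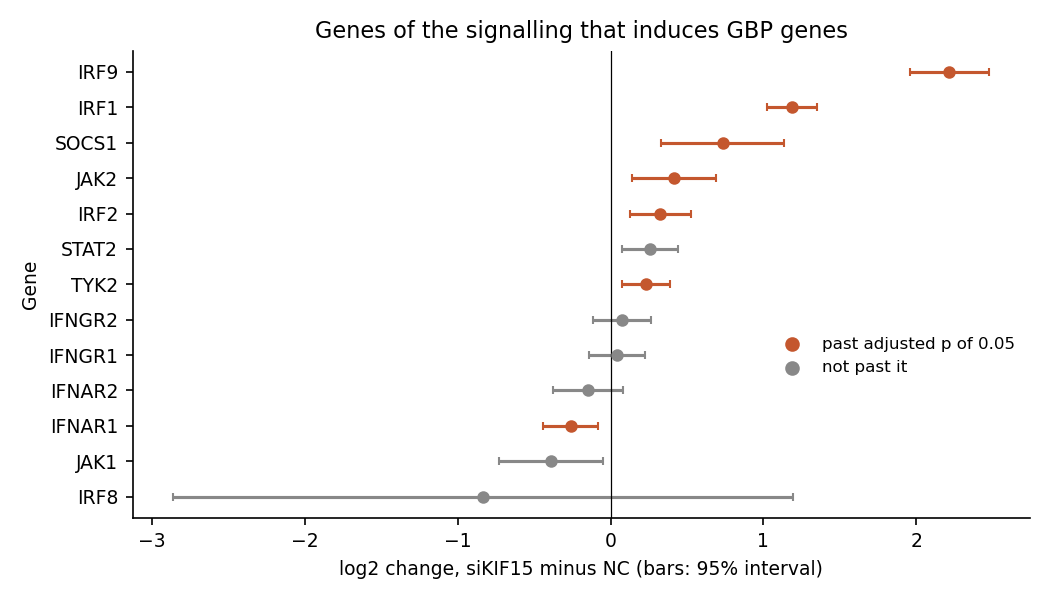
Log2 change (siKIF15 minus NC) of 13 signalling genes with 95% intervals from limma. Coloured points passed an adjusted p of 0.05, and IRF9 (2.22) and IRF1 (1.19) stand apart from the rest.

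Genes whose products act on or with GBPs were counted as a list. Of 13 measured partners and inflammasome genes, 3 rose, 1 fell and 9 did not pass (median 0.13). With a mean of at least 10 required in a group, 7 were left, of which 3 rose and 1 fell. Over all tested genes 9.66% were called upward and 8.33% downward. SFN, the 14-3-3 protein that holds phosphorylated GBP1 in the cytosol, rose 36.7-fold from 22.5, 37.9 and 37.1 to 1115.6, 1369.7 and 1086.5 (log2 change 5.18 ± 0.20 SE). PIM1, the kinase that phosphorylates GBP1, fell by 0.32 on the log2 scale, and this call was kept in 11 of 16 alternatives; it ended without NC 1, NC 2 or siKIF15 1 (adjusted p = 0.16, 0.18 and 0.12). Without siKIF15 3, 4 genes of this list rose and 3 fell.

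CASP1, the inflammasome caspase, rose 1.98-fold from 114.9, 134 and 127 to 242.4, 251.7 and 251.7. CASP4, the lipopolysaccharide-binding caspase that GBP coats serve, rose 1.30-fold, and its call ended without NC 3 (adjusted p = 0.060). GSDMD, the pore-forming substrate of these caspases, had a log2 change of 0.08 (limma adjusted p = 0.87), and FURIN one of 0.13 (adjusted p = 0.21). NLRP3 and PYCARD were low, with means of 7.36 and 5.39 in NC and 9.46 and 1.38 in siKIF15, and did not pass. IL1B was also low, with means of 9.34 in NC and 3.63 in siKIF15. PYCARD and IL1B were lower in all siKIF15 libraries than in any NC library (log2 changes of -1.64 and -1.25). Neither passed (limma adjusted p = 0.12 and 0.13). AIM2, a DNA sensor, was listed at 0 in the control libraries, while the siKIF15 libraries had 1.7, 6.2 and 2.1 (limma adjusted p = 0.097).

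Of the 8 enzymes of prenylation and CaaX processing, ICMT, which methylates the prenylated cysteine, rose 1.39-fold and kept its call in all 16 alternatives. FDPS, which makes farnesyl diphosphate, rose 1.20-fold but kept its call in 7 of them, and lost it without any 1 library other than siKIF15 3 (adjusted p from 0.064 to 0.15). After GC and length correction FDPS had a log2 change of 0.02 (limma adjusted p = 0.75), and the list had 1 rise and 3 falls. The transferase subunits FNTA, FNTB and PGGT1B had log2 changes of -0.02, -0.25 and -0.30 and did not pass, and the list median was -0.11. Of 17 tested relatives in the dynamin superfamily 3 rose and 3 fell (median -0.08). Over all tested genes 9.66% were called upward and 8.33% downward. The dynamin list had 4 rises and 5 falls after GC and length correction, and 3 rises and 5 falls without siKIF15 3. MX2 rose 8.23-fold to a mean of 76.7 and EHD4 1.34-fold, both in all 16 alternatives, while MX1 rose 1.48-fold, kept its call in 10 and lost it without NC 1, NC 2, siKIF15 1 or siKIF15 3. The atlastins ATL2 and ATL3 and the GTPase IRGQ fell by 0.40, 0.30 and 0.30 on the log2 scale. None of these 3 passed without siKIF15 1 or NC 2 (adjusted p from 0.054 to 0.12), IRGQ not without NC 3, and ATL3 not without NC 1, NC 3 or siKIF15 2.

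The genes nearest to each member in pattern were found by the root mean square distance between log2 signals over the 6 libraries, each gene centred on its own mean. For GBP4 these were COL17A1 (0.24), CCL22 (0.25) and CBFA2T3 (0.26), a distance larger than for any other member. CCL22 was at 0 in the control libraries and CBFA2T3 at 1.6, 2.6 and 3.8, so their distances depend on the pseudocount. ADGRF4 (0.09), FAM83E (0.12) and BEST3 (0.13) were nearest to GBP1, and PSMB9, an immunoproteasome subunit (0.13), DYSF (0.14) and SLC2A5 (0.15) to GBP5. BEST3 and SLC2A5 were also low in NC, with means of 6.24 and 3.75. ST6GALNAC1 (0.08), CDKN2B (0.10) and PARP14 (0.10) were nearest to GBP3. For GBP2 they were SPIN2B (0.04), SUPT4H1 (0.04) and WRAP53 (0.05). No member was among the 3 nearest genes of another.

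The luminal prostate genes KLK3 and HOXB13 were abundant in every library, and KLK3 had a log2 change of 0.09 that reversed after GC and length correction (-0.15). Over 8 luminal genes 4 rose (KLK2, KRT8, KRT18 and SLC45A3) and TMPRSS2 fell by 0.21 on the log2 scale, a call that ended without siKIF15 1 or any 1 NC library. KLK2, a kallikrein gene, rose 1.51-fold and kept its call in all 16 alternatives, against 13 for KRT8, 10 for SLC45A3 and 7 for KRT18. After GC and length correction KRT18 had a log2 change of 0.05 (limma adjusted p = 0.47), and the list had 4 rises and 3 falls. The list had 1 to 4 rises when single libraries were left out (1 without NC 2 or siKIF15 1, 2 without NC 3 or siKIF15 2, 3 without NC 1). Calls over all tested genes were 9.66% upward and 8.33% downward.

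Markers of other cell types that express GBPs were counted too. For comparison, 9.66% of all tested genes were called upward. Of 10 leukocyte markers only CD68, a lysosomal protein gene, rose (1.83-fold), and the list median was -0.22. The summed signal of the 10 was 1802 to 2080 in NC and 3071 to 3761 in siKIF15, most of it CD68. The common leukocyte antigen PTPRC was at 0.8, 0.1 and 3.8 in NC and at 0 in siKIF15. None of 5 tested endothelial markers passed, except that 1 did without siKIF15 3. All 5 had positive log2 changes, from 0.13 (VWF) to 1.61 (PECAM1), with a list median of 1.14. PECAM1, CDH5 and EMCN were near the floor, with means of 0.40, 1.22 and 4.03 in NC and 3.23, 6.71 and 7.55 in siKIF15. With a mean of at least 10 required in a group, 2 markers were left and the median was 0.40. The sum over all 6 listed was 332 to 357 in NC and 349 to 436 in siKIF15, most of it VWF. Of 7 tested fibroblast markers PDGFRA and FAP rose, both from near the floor. Each was at 0, 2.3 and 0 in NC, and their siKIF15 means were 5.93 and 6.55. Their calls were kept in 9 and 10 of 15 alternatives. When single libraries were left out, both rises held without NC 2 and FAP alone without siKIF15 3. THY1 went the other way, from 7, 6.2 and 0 in NC to 0 in siKIF15, and did not pass (limma adjusted p = 0.16). The fibroblast sum was 337 to 349 in NC and 329 to 377 in siKIF15, most of it COL1A1, with a list median of -0.01. The labels name 1 cell line for all libraries, and whether any other cells were present was not tested.

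In all 16 alternative settings, 6 of which left out 1 library each, GBP1, GBP3, GBP4 and GBP5 rose and GBP2 did not pass. The log2 change of GBP4 ran from 4.24 to 4.54, of GBP1 from 1.87 to 2.17, of GBP3 from 1.29 to 1.42 and of GBP2 from 0.05 to 0.23. GBP5 reached at most 1.83 and kept a limma adjusted p of at most 0.0085. The balance of calls over all genes depended on scaling, with 1599 higher and 1379 lower as deposited, 1205 and 1753 with libraries scaled to equal totals, and 1661 and 3377 after GC and length correction.

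**Figure D5:**
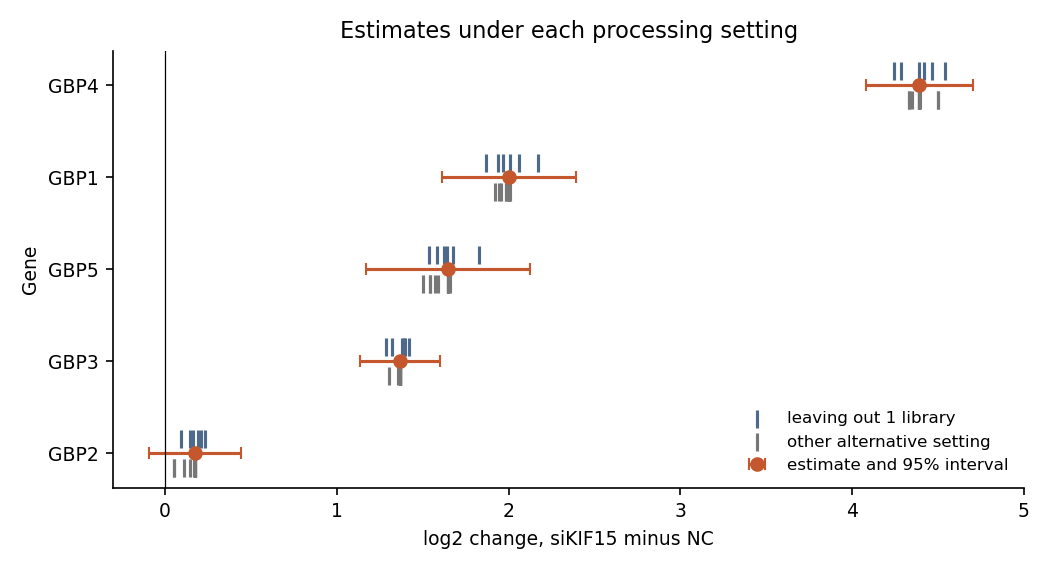
Log2 change (siKIF15 minus NC) of the 5 genes as estimated (points with 95% intervals) and under 16 alternative settings (ticks). The ticks of GBP4 lie between 4.24 and 4.54, and those of GBP2 between 0.05 and 0.23.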

How the data were processed

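RNA-seq libraries were made from total RNA by a standard Illumina procedure, per the labels' protocols. The submitters' processing notes list Bowtie 0.12.2 with mm8 and mm9, which are mouse builds, for these human libraries. Counter, annotation and normalization are not given in the sources used here. For each symbol and library the authors deposited 1 signal value, with no unit in the header. Sums of signal per library are not depths, so depth is unknown and no counting interval is given. The 16548 genes whose mean reached 1 in either group were tested with limma 3.58.1 (R 4.3.3) with a variance trend on log2(value + 1) over all 6 libraries, as the design set for a normalized signal, with Benjamini-Hochberg adjustment. The fit was tested on simulated data, where it recovered most of the smaller and all of the larger changes and its share of false calls was above the nominal level. Alternatives were pseudocounts of 0.5 and 5, no filter, a mean of at least 10, equal totals, quantile normalization, no variance trend, a replicate block and leaving out each library. GC and length correction removed a quadratic trend of each library on GC content and log2 transcript length, known for 96.9% of tested genes; it and the coding length were added after seeing the data. The members, lists and tests were chosen with earlier results of these data known. Named were GBP1 to GBP5, KIF15, KLK3, listed genes past the threshold or at the floor, other listed genes chosen after their values were seen, and the 3 nearest genes in pattern. Symbols were matched to RefSeq and GENCODE 29; GBP1P1 and IFNG were not analysed here. The protein features planned were not analysed. Some members of the signalling and luminal lists are not reported here and were left out of their counts.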

Additional observations from a re-analysis of the deposited data

How the results depend on the processing

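For GBP1 to GBP5, no log2 change altered its direction or its side of the threshold in 16 alternatives; GBP6 lost its call without NC 2 or siKIF15 1, and 8 of 10 mean shares moved by more than their SD with coding length. The count of genes past the threshold, 2978, was 1070 without the variance trend, 5038 after GC and length correction and 5220 when this correction was combined with the replicate block, and ran from 1184 (without siKIF15 1) to 5077 (without siKIF15 3) when single libraries were left out. It was 1366 without NC 2, and the cause of these differences was not tested. KLK3 reversed from 0.09 to -0.15 under the correction, with and without the block. Replicate numbers are shared between the groups, but same-numbered libraries did not deviate together (correlations of 0.02, -0.02 and 0.02 over 16548 genes), and a replicate block gave 3184 calls and log2 changes of 4.39, 2.00, 1.65, 1.37 and 0.17 for GBP4, GBP1, GBP5, GBP3 and GBP2. Other named genes lost their call in 114 and gained one in 7 of 542 refits. Depth is unknown, and 3 libraries a group limit the precision.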
